A study of Mus musculus with 6 samples.

Results

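The collagen chain genes described here are the 43 genes, of 23284 listed, whose symbol has the form *Col* number, a, number. They were read in ECFP+ osteoblasts (OBs) sorted from bone that rhBMP-2 induced under the skin. Male *Col2.3*-ECFP mice of 12 to 16 weeks received collagen sponges (CS) carrying 2.5 μg rhBMP-2 each, and OBs were collected on day 10 (n = 3) and day 14 (n = 3). In these mice a fragment of the *Col1a1* promoter drives the cyan fluorescent protein ECFP, so the sort itself chose cells that use a *Col1a1* promoter. All 6 samples therefore share the transgene, the BMP-2 and the sort, and no sample without BMP-2 was analysed here. Tissue pieces were treated with 0.25% trypsin for 15 min and 0.2% collagenase II for 40 min, and the cells of day 14 went through 2 collagenase rounds where those of day 10 went through 1, so that day and number of digestions cannot be told apart. The titles call the samples biological replicates, without saying how many animals each holds. They place all 3 later samples on day 14, while their free-text descriptions give day 14, 15 and 16 for replicates 1, 2 and 3.

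Collagens are secreted proteins in which α chains wind around each other in a triple helix, as homotrimers or as mixed trimers of fixed partners. Fibrillar chains build the rope-like fibrils of bone, cartilage and skin, FACIT chains sit on the surface of those fibrils, network chains form sheets and lattices such as basement membranes, and transmembrane chains stay anchored in the cell. In bone, type I collagen is the main component of the organic matrix on which mineral is laid down, whereas type II, IX, X and XI chains are the classic collagens of cartilage.

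Levels are given in FPKM, fragments counted per kilobase of transcript and scaled to the number of mapped reads, a scale per length on which chains can be compared. Lists of 3 values are replicates 1, 2 and 3 in that order. The 6 samples held an estimated 4501612 to 7721055 mapped reads each, so that 3 reads on 1000 bases are worth 0.389 to 0.666 FPKM. Day 14 replicate 2 stood apart from the other day 14 samples: among the 32 chains with a mean of at least 1 FPKM it lay within the day 10 range in 15, against 4 for day 14 replicate 1 and 3 for day 14 replicate 3. This count was not made over all genes, so whether it is particular to the chains is not known. Results that rest on day 14 replicate 2 are given with and without it. Of the OB markers, *Runx2* measured 23.3, 26.7 and 13.2 FPKM on day 10 and 10.5, 19.4 and 7.00 FPKM on day 14. The OB marker *Sp7* measured 73.7, 51.1 and 40.1 FPKM on day 10 and 9.79, 27.9 and 4.09 FPKM on day 14, so both defining OB markers were present in every sample. Although CD45+ cells had been gated out, the summed level of 7 myeloid markers was 29.3 to 117 FPKM on day 10 and 209, 11.5 and 529 FPKM on day 14. Most of this sum was *Lyz2* in every sample.

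All 43 chains were above 0 in all 6 samples. The collagen chains took 11.5%, 13.9% and 9.93% of a sample's summed FPKM on day 10 and 9.30%, 10.2% and 9.96% on day 14. By their mean over the 6 samples, *Col1a1* and *Col1a2* lay above 10000 FPKM, *Col3a1* and *Col6a1* between 1000 and 10000, 11 chains between 100 and 1000, 11 between 10 and 100, 6 between 1 and 10, and 11 under 1. Fibrillar chains made up 95.1 ± 1.86% of the collagen FPKM on day 10 and 91.8 ± 0.437% on day 14 (means ± SD, n = 3). Beaded filament chains (type VI) made up 3.29 ± 1.35% and 5.64 ± 0.621%, FACIT chains 1.03 ± 0.273% and 1.28 ± 0.160%, and hexagonal network chains (types VIII and X) 0.431 ± 0.211% and 1.102 ± 0.115%. Basement membrane chains (type IV) were a small share, 0.0251 ± 0.01005% and 0.108 ± 0.0398%. The share of the beaded filament, hexagonal and basement membrane chains was above every day 10 value in all 3 day 14 samples. So was that of the multiplexins, though only just (0.0415% in day 14 replicate 2 against 0.0414% in day 10 replicate 3). The shares of the fibrillar and the transmembrane chains were below every day 10 value in all 3. Shares of 1 total are not independent: a lower share of the type I chains by itself raises the others.

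**Figure D1:**
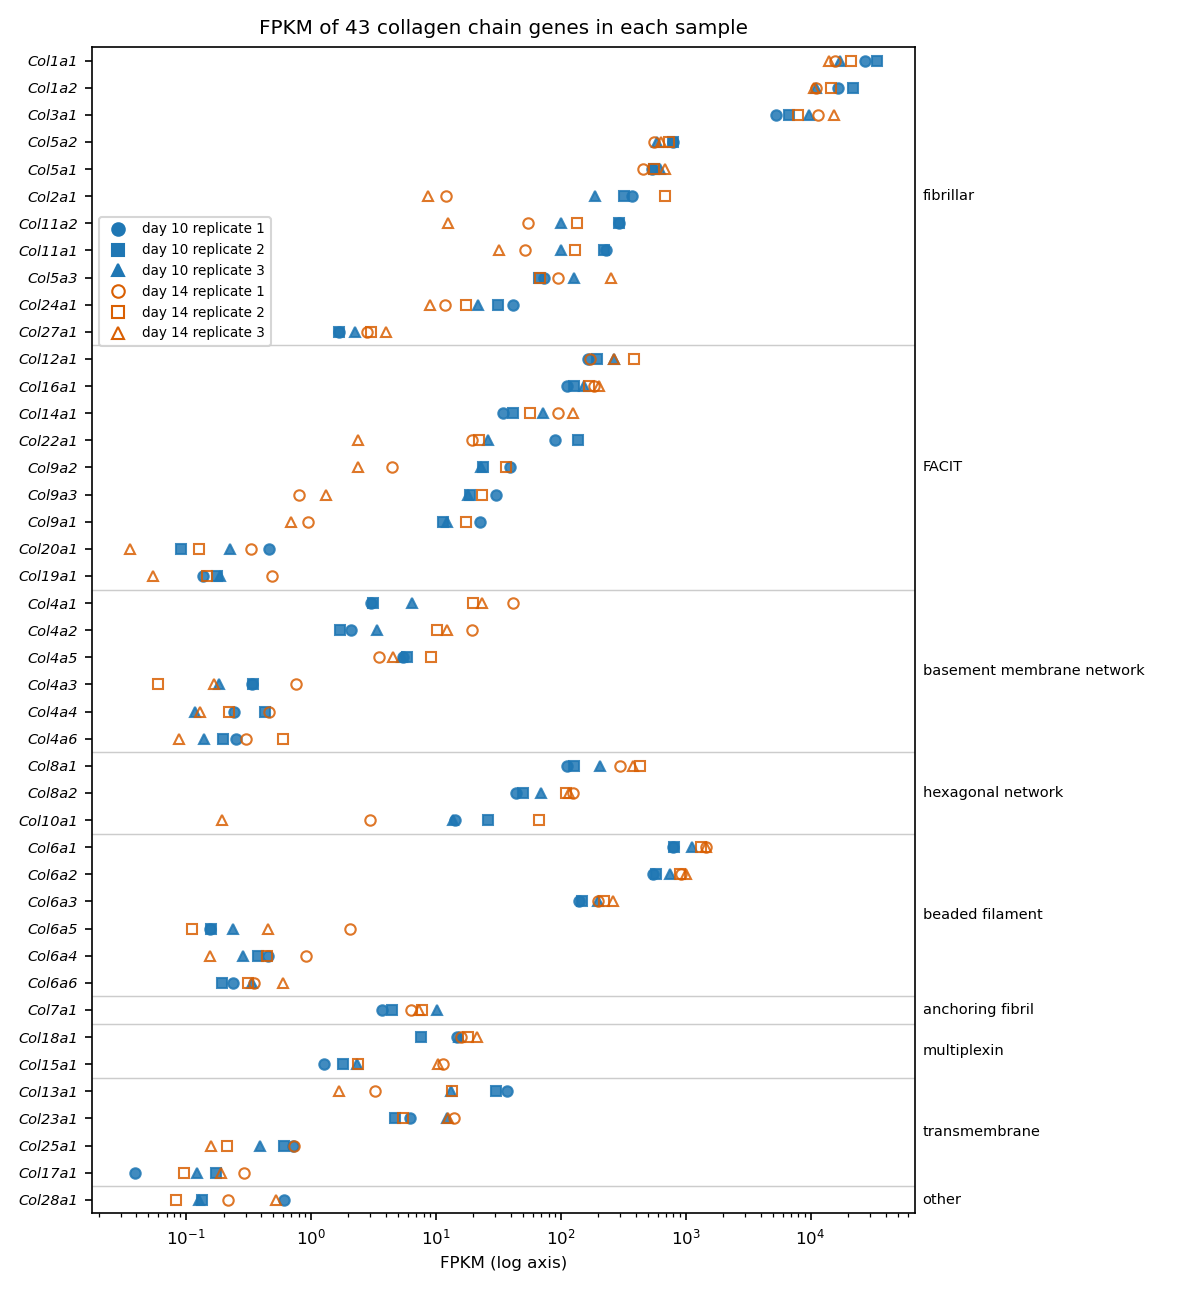
FPKM of the collagen chains in each sample on a log axis, chains grouped by class. Circles, squares and triangles are replicates 1, 2 and 3, filled blue for day 10 and open orange for day 14. *Col1a1* and *Col1a2* stand above 10000 FPKM in all 6 samples, and *Col4a1*, *Col4a2*, *Col8a1* and *Col8a2* are the network chains whose days do not overlap.

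Day 14 was compared with day 10 with limma on log2(FPKM + 0.1) over 19526 genes, and p-values were adjusted over all of them (Benjamini-Hochberg). No collagen chain had an adjusted p under 0.05 in all 6 samples, where 3 genes (0.0154%) had one. At an unadjusted p under 0.05, 18 of 43 chains (41.9%) passed, against 10.0% of all genes tested and 15.4% of the genes with a mean of at least 1 FPKM. This count rests on single libraries: it was 9, 7 and 19 without day 10 replicates 1, 2 and 3, and 13, 22 and 8 without day 14 replicates 1, 2 and 3, and it was 11 without the trend of variance with mean. Of the 18, 11 were higher on day 14 (5.60% of all genes), namely *Col4a1*, *Col4a2*, *Col6a1*, *Col6a2*, *Col6a3*, *Col8a1*, *Col8a2*, *Col14a1*, *Col15a1*, *Col16a1* and *Col27a1*. The 7 that were lower (4.40%) were *Col9a1*, *Col9a3*, *Col11a1*, *Col11a2*, *Col13a1*, *Col22a1* and *Col24a1*. Over 2-fold, 6 chains were higher (5.25% of all genes) and 10 were lower (8.39%). In 10 chains the days did not overlap with day 14 higher (7.59% of all genes), and in 2 chains with day 14 lower (6.67%). An exact permutation test of 3 samples against 3 gives such a chain p = 0.1, the smallest it can give. The median log2 difference was 0.16 over the chains and −0.04 over all genes.

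Without day 14 replicate 2, 8 chains had an adjusted p under 0.05 in limma, where 76 of 19674 genes did (0.386%). *Col4a1*, *Col4a2* and *Col15a1* were the 3 higher on day 14 in that fit (0.219% of all genes), and *Col2a1*, *Col9a1*, *Col9a2*, *Col9a3* and *Col13a1* were the 5 lower (0.168%). That fit rests on 2 day 14 samples and leaves out the day 14 sample most like day 10 in these same chains, which by itself widens the difference between the days, so its p-values are no independent support for a change. With any other single sample left out, 0 chains had an adjusted p under 0.05. In the fit without day 14 replicate 2, 22 chains had an unadjusted p under 0.05, 12 of them higher on day 14 (7.01% of all genes) and 10 lower (5.99%). Over 2-fold, 7 were higher (9.71%) and 10 lower (7.60%).

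**Figure D2:**
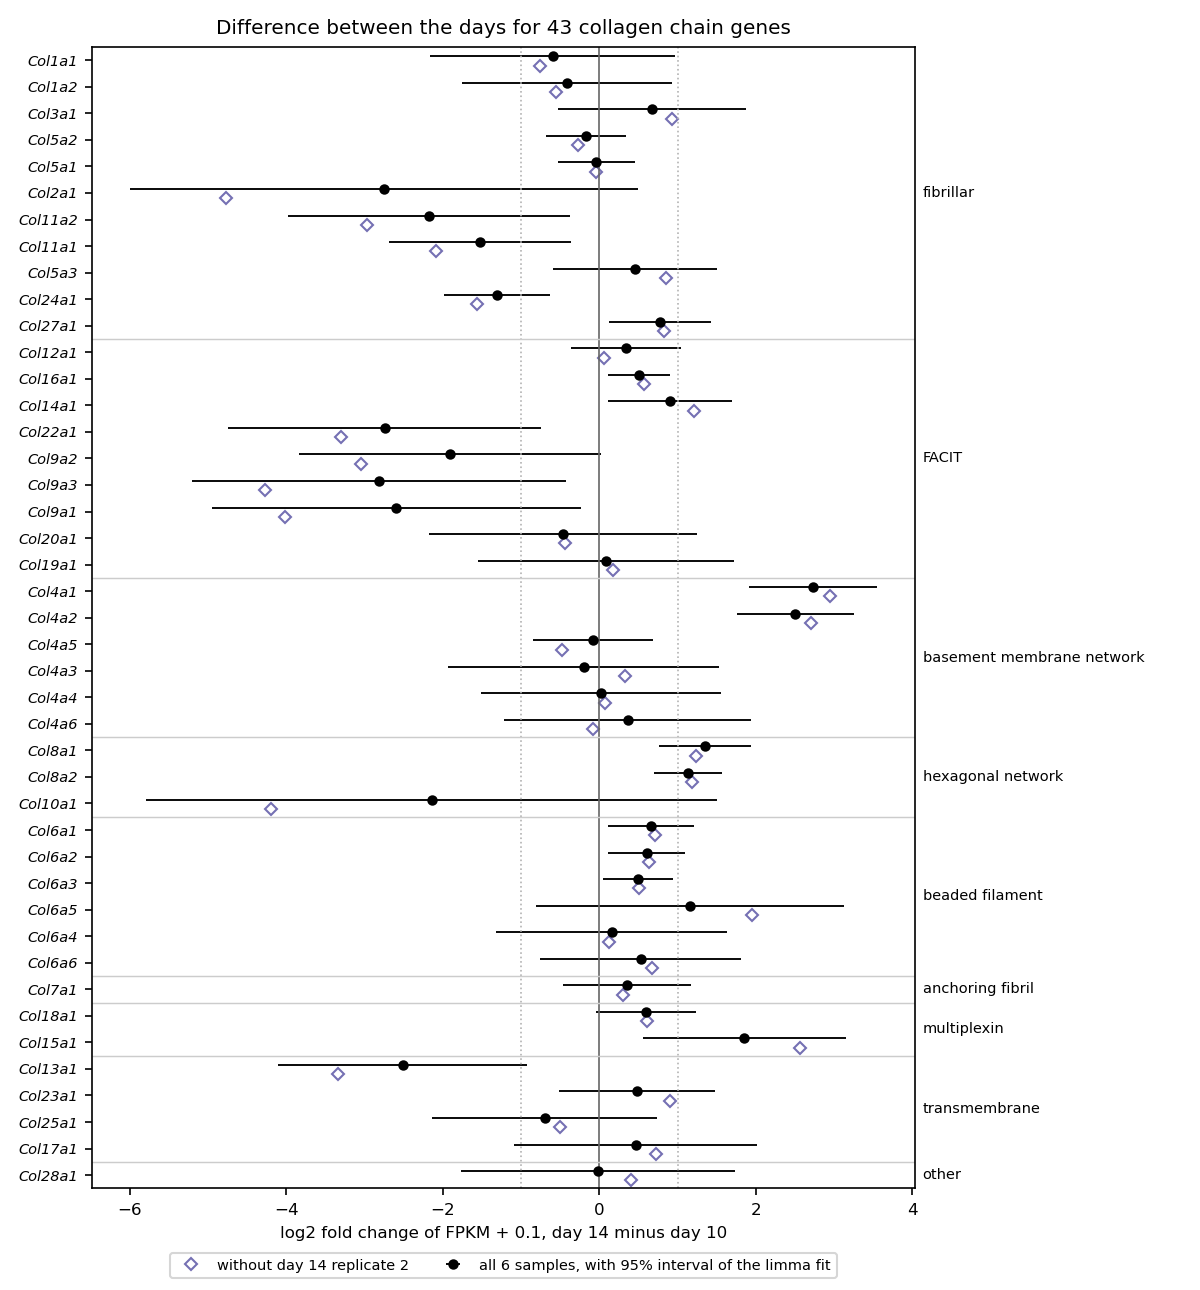
Log2 difference between day 14 and day 10 for the 43 chains grouped by class, on log2(FPKM + 0.1). Black points are the fit of all 6 samples with its 95% interval, purple diamonds are the fit without day 14 replicate 2, and dotted lines mark 2-fold. The type II, IX and X chains move furthest when day 14 replicate 2 is left out, *Col2a1* from −2.75 to −4.77.

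Among the major fibrillar chains, type I chains were the most abundant on both days, with day 14 means below day 10 means that the spread did not separate. *Col1a1*, the α1 chain of type I collagen, measured 27384, 34157 and 17339 FPKM on day 10 and 15729.5, 21088 and 14151 FPKM on day 14. Its partner *Col1a2* measured 16541, 21942 and 11114.5 FPKM on day 10 and 11028, 14525 and 10581 FPKM on day 14. The highest values of both were in day 10 replicates 1 and 2 and the days overlapped. The log2 difference was −0.60 ± 0.69 (SE) for *Col1a1* (limma, adjusted p = 0.839) and −0.42 ± 0.59 for *Col1a2* (adjusted p = 0.875). These SEs draw on a variance trend fitted over all genes, and the p-values moved with the fit. For *Col1a1* the unadjusted p (limma) was 0.409 here, 0.0881 over genes with a mean above 1 FPKM, 0.606 without a filter and 0.127 without the trend. For *Col1a2* it was 0.496, 0.191, 0.654 and 0.246 in the same order. Of 8 OB markers 8 had a lower mean on day 14, of which 3 (*Sp7*, *Dlx5* and *Phex*) had an unadjusted p under 0.05 (4.40% of all genes) and 5 did not. The summed level of these markers, most of it *Ibsp* in every sample, was 11218 to 27410 FPKM on day 10 and 4196, 17722 and 1629 FPKM on day 14. Day 14 replicate 2 was thus within the day 10 range and the other day 14 samples were below it. Without day 14 replicate 2, 7 of the 8 were lower at an unadjusted p under 0.05 (5.99% of all genes, limma). At an adjusted p under 0.05, 3 were lower in that fit (0.168%). Their part in the type I values was not tested. In bulk samples, fewer cells of a type and less RNA per cell cannot be told apart.

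*Col3a1*, the homotrimeric fibrillar chain of stretchable tissues and early repair matrix, measured 5271, 6750.0 and 9676 FPKM on day 10 and 11392, 7900.1 and 15502 FPKM on day 14. Day 14 replicates 1 and 3 were above every day 10 sample and day 14 replicate 2 was within the day 10 range. This gave a log2 difference of 0.67 ± 0.52 (limma, adjusted p = 0.744), which was 0.92 without day 14 replicate 2 (adjusted p = 0.570). Its share of the collagen FPKM was 14.1 ± 7.31% on day 10 and 25.4 ± 9.02% on day 14, whereas the type I chains had 77.05 ± 9.30% and 62.6 ± 8.84% (means ± SD, n = 3). The 3 chains together held 91.2 ± 2.12% and 88.0 ± 0.610%.

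Type I collagen is chiefly a trimer of 2 α1 chains and 1 α2 chain. The ratio of *Col1a1* to *Col1a2* was 1.66, 1.56 and 1.56 on day 10 and 1.43, 1.45 and 1.34 on day 14. All day 14 ratios lay below all day 10 ratios. The means were 1.59 ± 0.0561 and 1.41 ± 0.0601 (SD, n = 3). By contrast the ratio of *Col3a1* to *Col1a1*, which was chosen after the values were seen, was 0.192, 0.198 and 0.558 on day 10 and 0.724, 0.375 and 1.095 on day 14. Here the days overlapped, and in day 14 replicate 3 *Col3a1* was the higher of both chains.

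**Figure D3:**
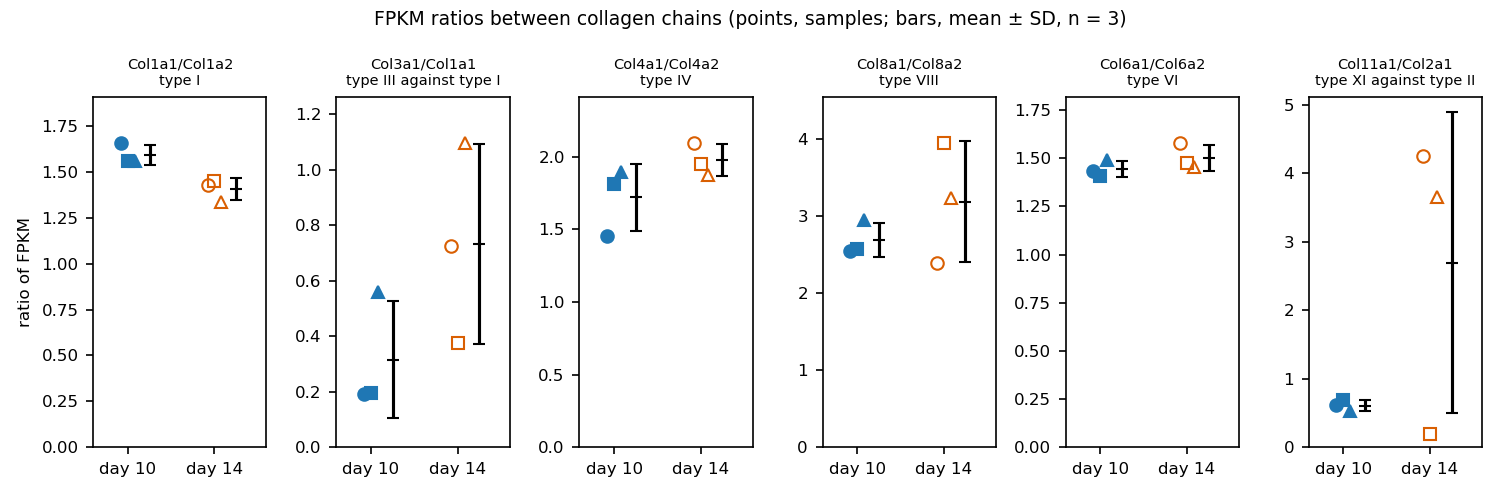
Ratios of the FPKM of 6 pairs of collagen chains in each sample (filled blue day 10, open orange day 14), with bars at the mean ± SD of each day (n = 3) and axes that start at 0. The ratio *Col6a1*/*Col6a2* ran from 1.41 to 1.58 over the 6 samples and *Col1a1*/*Col1a2* was lower in every day 14 sample.

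The type V chains, which help to start type I fibrils and limit their width, were close to level. *Col5a1* measured 541, 557 and 627 FPKM on day 10 and 455, 560.1 and 683 FPKM on day 14, and its log2 difference was −0.04 ± 0.22 (limma, adjusted p = 0.979). For *Col5a2*, a partner of *Col5a1*, the values were 792, 798 and 593 FPKM on day 10 and 562, 733 and 638 FPKM on day 14, with a log2 difference of −0.17 ± 0.22 (adjusted p = 0.863). The 95% intervals, −0.53 to 0.45 and −0.68 to 0.34, leave room for changes of either sign. *Col5a3*, the less widespread type V chain, measured 74.2, 67.5 and 127 FPKM on day 10 and 95.1, 68.7 and 255 FPKM on day 14. Its high value in day 14 replicate 3 set the log2 difference of 0.46 ± 0.46 (adjusted p = 0.808), which was −0.09 without that sample.

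Of the late-described fibrillar chains *Col24a1* and *Col27a1*, one was lower and the other higher on day 14. *Col24a1*, a chain known from developing bone, measured 41.3, 31.7 and 21.9 FPKM on day 10 and 11.8, 17.6 and 9.001 FPKM on day 14. The highest day 14 value was thus under the lowest day 10 value. On the log2 scale day 14 differed by −1.31 ± 0.30 (limma, adjusted p = 0.298), and the unadjusted p stayed under 0.05 with any 1 sample left out. *Col27a1*, known from cartilage, measured 1.68, 1.69 and 2.25 FPKM on day 10 and 2.83, 3.02 and 4.02 FPKM on day 14. Again the days did not overlap, with day 14 the higher, by a log2 difference of 0.78 ± 0.28 (adjusted p = 0.422).

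The basement membrane chains *Col4a1* and *Col4a2*, whose products form the common type IV trimer, had the 2 lowest unadjusted p-values of the 43 chains. They lie head to head on chromosome 8, *Col4a1* on the minus strand at chr8:11198423-11312826 and *Col4a2* on the plus strand at chr8:11312805-11449287, and their annotated spans overlap by 22 bases. Their shared start region is printed because both chains were higher on day 14 in every sample. Both sequences are from RefSeq (GRCm38.p6), 250 bases before to 50 after the start and 5′ to 3′ on each gene's own strand, with capitals marking CCAAT boxes (CCAAT or ATTGG) and GC boxes (GGGCGG or CCGCCC). The *Col4a1* window is chr8:11312777-11313076 and the *Col4a2* window is chr8:11312555-11312854, and they share 78 bases (chr8:11312777-11312854).
Col4a1: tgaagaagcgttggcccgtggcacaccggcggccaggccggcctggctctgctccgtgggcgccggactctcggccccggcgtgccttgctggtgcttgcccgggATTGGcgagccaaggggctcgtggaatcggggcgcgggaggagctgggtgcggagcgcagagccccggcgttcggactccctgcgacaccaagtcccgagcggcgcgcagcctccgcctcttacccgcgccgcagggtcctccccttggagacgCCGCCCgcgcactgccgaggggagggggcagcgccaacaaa
Col4a2: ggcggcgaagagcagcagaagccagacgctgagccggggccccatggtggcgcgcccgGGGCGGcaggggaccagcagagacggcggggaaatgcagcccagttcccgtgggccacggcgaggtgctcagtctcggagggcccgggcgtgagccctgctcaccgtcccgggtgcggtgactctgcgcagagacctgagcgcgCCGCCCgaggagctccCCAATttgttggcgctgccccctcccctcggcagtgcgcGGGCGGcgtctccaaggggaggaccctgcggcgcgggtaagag
Each window held 1 CCAAT box, and the *Col4a1* window held 1 GC box and the *Col4a2* window 3. The GC box of the *Col4a1* window lies in the shared bases and is the last GC box of the *Col4a2* window, read on the other strand. The windows had a GC content of 74.0% and 73.7%, against a median of 52.7% over all promoter windows.

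*Col4a1* measured 3.06, 3.12 and 6.41 FPKM on day 10 and 41.2, 19.98 and 23.3 FPKM on day 14. *Col4a2* measured 2.10, 1.72 and 3.38 FPKM on day 10 and 19.7, 10.2 and 12.4 FPKM on day 14. In both chains the days were far apart, and day 14 replicate 1 was the highest. The log2 difference was 2.73 ± 0.36 for *Col4a1* (limma, adjusted p = 0.116) and 2.51 ± 0.33 for *Col4a2* (adjusted p = 0.116). These are 6.64-fold and 5.68-fold differences in FPKM + 0.1, with 95% intervals of 1.91 to 3.55 and 1.76 to 3.25 on the log2 scale. Without day 14 replicate 2 the differences were 2.94 and 2.71 (adjusted p = 0.0332 for each, limma). The ratio of *Col4a1* to *Col4a2* stayed between 1.46 and 2.09 in the 6 samples. Reads in the 22 shared bases cannot be assigned to a strand, since the library kit does not mark strand.

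Endothelial cells are a known source of type IV chains that the sort for ECFP+ cells should remove, and endothelial markers were low in all samples. *Pecam1* measured 0.268, 0.657 and 0.464 FPKM on day 10 and 1.35, 0.720 and 0.930 FPKM on day 14. *Cdh5* lay between 0.0540 and 0.752 FPKM over the 6 samples. Of 7 endothelial markers 7 had a higher mean on day 14 and 1, *Emcn*, had an unadjusted p under 0.05 (5.60% of all genes), while *Kdr* and *Vwf* differed by 0.08 and 0.27 on the log2 scale. *Emcn* was at 0 in day 10 replicates 1 and 3. The summed level of the list was 1.41 to 3.21 FPKM on day 10 and 6.74, 3.18 and 4.22 FPKM on day 14, so that day 14 replicate 2 was within the day 10 range. Their part in the type IV difference was not tested.

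In the other type IV chains the days overlapped. *Col4a5*, a chain of specialised basement membranes, measured 5.51, 5.92 and 5.39 FPKM on day 10 and 3.54, 9.18 and 4.53 FPKM on day 14. Day 14 replicates 1 and 3 were below and day 14 replicate 2 was above all day 10 samples, and the log2 difference was −0.08 ± 0.34 (limma, adjusted p = 0.971). *Col4a3*, *Col4a4* and *Col4a6* had means under 1 FPKM. The pairs *Col4a3* and *Col4a4* on chromosome 1 and *Col4a5* and *Col4a6* on chromosome X also lie head to head, 71 and 1308 bases apart.

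Type VIII chains, short network chains known from vessel walls and the corneal basement membrane, were higher on day 14 in both genes. They lie on chromosomes 16 and 4, so that no promoter is shared. Their start regions (RefSeq, GRCm38.p6, same window, GC boxes in capitals) are chr16:57754688-57754987 on the minus strand for *Col8a1* and chr4:126286544-126286843 on the plus strand for *Col8a2*, and they are printed for comparison with the type IV pair.
Col8a1: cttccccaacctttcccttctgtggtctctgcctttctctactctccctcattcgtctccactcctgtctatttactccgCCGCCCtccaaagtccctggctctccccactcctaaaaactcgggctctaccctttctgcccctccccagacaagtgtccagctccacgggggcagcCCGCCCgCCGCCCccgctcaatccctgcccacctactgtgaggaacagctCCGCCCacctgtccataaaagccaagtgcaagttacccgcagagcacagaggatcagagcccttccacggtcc
Col8a2: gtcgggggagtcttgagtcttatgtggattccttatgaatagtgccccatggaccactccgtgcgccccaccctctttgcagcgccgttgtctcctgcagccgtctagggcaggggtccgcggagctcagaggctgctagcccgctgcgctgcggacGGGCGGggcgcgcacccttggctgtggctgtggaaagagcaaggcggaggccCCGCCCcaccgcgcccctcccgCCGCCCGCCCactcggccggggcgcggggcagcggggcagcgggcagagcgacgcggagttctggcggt
Each window held 4 GC boxes and no CCAAT box, and in the *Col8a2* window the last 2 overlap.

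*Col8a1* measured 112, 128 and 205 FPKM on day 10 and 300.1, 432 and 379 FPKM on day 14. *Col8a2* measured 44.0, 49.7 and 69.7 FPKM on day 10 and 126, 109 and 117 FPKM on day 14. Day 14 replicate 2 stood with the other day 14 samples here, above day 10. Day 14 exceeded day 10 by a log2 difference of 1.35 ± 0.26 for *Col8a1* (limma, adjusted p = 0.288) and 1.13 ± 0.19 for *Col8a2* (adjusted p = 0.236). The unadjusted p stayed under 0.05 with any 1 sample left out. The ratio of *Col8a1* to *Col8a2* was 2.69 ± 0.224 on day 10 and 3.19 ± 0.779 on day 14 (means ± SD, n = 3).

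Type VI chains form beaded filaments around cells, and all 3 main chains were higher on day 14 by less than 2-fold. *Col6a1* measured 791, 814 and 1117 FPKM on day 10 and 1457, 1323 and 1467 FPKM on day 14. *Col6a2* measured 551, 578 and 750.1 FPKM on day 10 and 923, 899 and 1010.1 FPKM on day 14. In both genes the days did not overlap. *Col6a3* measured 139.5 and 149 FPKM in day 10 replicates 1 and 2 and 200.3 FPKM in replicate 3, against 198, 222 and 263 FPKM on day 14, so that 1 day 14 sample lay within the day 10 range. The log2 differences were 0.66 ± 0.24, 0.60 ± 0.22 and 0.49 ± 0.20 (limma, adjusted p = 0.423, 0.407 and 0.459). *Col6a1* and *Col6a2* are neighbours on chromosome 10, 85161 bases apart on the same strand, and their ratio varied from 1.41 to 1.58. The ratio of *Col6a1* to *Col6a3* was 5.57 ± 0.102 on day 10 and 6.30 ± 0.931 on day 14 (means ± SD, n = 3). *Col6a4*, *Col6a5* and *Col6a6*, which lie side by side on chromosome 9, had means under 1 FPKM.

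The 7 chains of types II, IX, X and XI, which were grouped as cartilage chains after their values were seen, split the day 14 samples. Day 14 replicates 1 and 3 were the 2 lowest of the 6 samples in 7 of 7 chains, while day 14 replicate 2 was the highest in 2 of 7. These 2 samples were also the lowest in other chains, among them *Col1a1*, *Col1a2*, *Col13a1*, *Col22a1* and *Col24a1*, and in the OB markers *Runx2* and *Sp7*. The order is thus not particular to the cartilage chains, and its share over all genes was not counted. *Col2a1*, the main fibrillar chain of cartilage, measured 373, 321 and 189 FPKM on day 10 and 12.1, 688 and 8.75 FPKM on day 14. Over all 6 samples its log2 difference was −2.75 ± 1.42 (limma, adjusted p = 0.577). Without day 14 replicate 2 it was −4.77 ± 0.30 (adjusted p = 0.00225).

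The type XI chains, partners of *Col2a1* in cartilage fibrils, again had day 14 replicates 1 and 3 lowest. *Col11a1* measured 230.3, 220.3 and 99.8 FPKM on day 10 and 51.4, 129.7 and 31.9 FPKM on day 14. *Col11a2* measured 294, 292 and 101 FPKM on day 10 and 54.3, 136 and 12.5 FPKM on day 14. In both, day 14 replicate 2 was within the day 10 range. The log2 differences were −1.52 ± 0.51 (limma, adjusted p = 0.384) and −2.18 ± 0.79 (adjusted p = 0.420). Without day 14 replicate 2 they were −2.08 and −2.97 (adjusted p = 0.0693 and 0.113, limma). The ratio of *Col11a1* to *Col2a1* ran from 0.529 to 0.686 on day 10 and was 4.25, 0.189 and 3.65 on day 14, a ratio chosen after the values were seen. *Col11a1* was thus above *Col2a1* in day 14 replicates 1 and 3 and below it in the other 4 samples.

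Type IX chains are FACITs that coat type II fibrils. *Col9a1* measured 22.6, 11.4 and 12.2 FPKM on day 10 and 0.9504, 17.6 and 0.692 FPKM on day 14. *Col9a2* measured 39.6, 23.7 and 23.2 FPKM on day 10 and 4.48, 36.6 and 2.40 FPKM on day 14. *Col9a3* measured 30.5, 18.8 and 18.1 FPKM on day 10 and 0.803, 23.5 and 1.32 FPKM on day 14. In all 3 chains day 14 replicate 2 was within the day 10 range and the other day 14 samples were below it. The log2 differences were −2.59 ± 1.03, −1.90 ± 0.84 and −2.81 ± 1.05 (limma, adjusted p = 0.457, 0.504 and 0.431). Without day 14 replicate 2 they were −4.02, −3.05 and −4.27 (adjusted p = 0.0102, 0.0220 and 0.00570). Exons of *Col9a3* overlap those of *Tcfl5* on the other strand, which measured 9.66 to 14.7 FPKM, so that its low values are uncertain.

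*Col10a1*, the network chain of hypertrophic cartilage, measured 14.3, 26.1 and 13.8 FPKM on day 10 and 2.99, 67.4 and 0.194 FPKM on day 14. Day 14 replicate 2 was the highest and day 14 replicate 3 the lowest sample, and the log2 difference was −2.14 ± 1.59 (limma, adjusted p = 0.726). Without day 14 replicate 2 it was −4.19 ± 0.85 (adjusted p = 0.0876). Exons of *Col10a1* overlap *Nt5dc1* on the other strand, at 1.48 to 4.51 FPKM. Its start region (RefSeq, GRCm38.p6, chr10:34389731-34390030, plus strand) is printed beside those of the other network chains, with the TATA box (TATAAA) in capitals at 32 bases before the start.
Col10a1: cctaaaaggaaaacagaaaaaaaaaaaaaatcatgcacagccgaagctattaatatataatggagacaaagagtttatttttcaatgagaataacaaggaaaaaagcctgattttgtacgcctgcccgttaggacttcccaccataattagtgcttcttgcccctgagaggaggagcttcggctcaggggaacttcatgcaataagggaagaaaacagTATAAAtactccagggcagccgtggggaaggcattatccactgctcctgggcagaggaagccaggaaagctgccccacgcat
This window held no GC box and no CCAAT box, and its GC content was 44.3%, against 60.3% and 71.7% for the *Col8a1* and *Col8a2* windows.

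**Figure D4:**
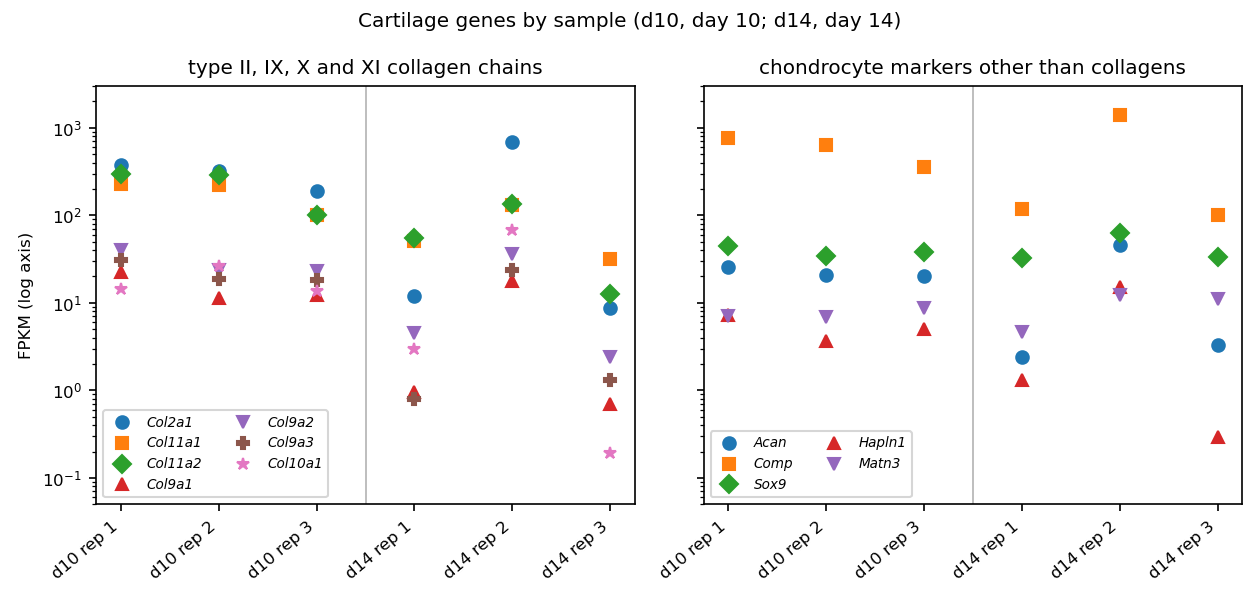
FPKM (log axis) of the 7 cartilage chains (left) and of 5 of the 10 chondrocyte markers (right) in the 6 samples along the horizontal axis. Each gene has a marker shape and colour, and a line parts the days. All 5 markers drawn were highest in day 14 replicate 2. Of those not drawn, *Lect1*, *Matn1*, *Epyc* and *Ucma* were highest in a day 10 sample. For *Col2a1* day 14 replicate 2 stands at 688 FPKM, and day 14 replicates 1 and 3 stand at 12.1 and 8.75 FPKM.

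Of the chondrocyte markers other than collagens, some had their highest value in day 14 replicate 2 as *Col2a1* did, and others did not. *Acan*, the cartilage proteoglycan aggrecan, measured 25.9, 20.8 and 20.3 FPKM on day 10 and 2.39, 45.8 and 3.29 FPKM on day 14. *Sox9*, the transcription factor of the chondrocyte lineage, measured 45.1, 34.3 and 38.0 FPKM on day 10 and 32.9, 62.7 and 33.7 FPKM on day 14. Both were highest in day 14 replicate 2, but *Sox9* in day 14 replicates 1 and 3 was close to its lowest day 10 value. *Matn3* measured 4.67, 12.4 and 10.9 FPKM on day 14, with replicates 2 and 3 above its day 10 values of 6.80 to 8.82 FPKM, while *Epyc* and *Ucma* were at 0 and 0.276 FPKM in day 14 replicate 2. These 3 were named after their values were seen. Of 10 chondrocyte markers 8 had a lower mean log2 level on day 14. Of these, 1 had an unadjusted p under 0.05 (4.40% of all genes were lower at that threshold). The summed level of the list was 444 to 868 FPKM on day 10 and 162, 1556 and 149 FPKM on day 14. Most of it was *Comp* in every sample, at 767, 640 and 359 FPKM on day 10 and 118, 1383 and 99.8 FPKM on day 14. *Matn1* was at 0 in day 10 replicate 3 and in day 14 replicates 1 and 3. Of the hypertrophic markers, which did not all differ in the same direction, *Ihh* measured 5.29, 2.44 and 2.87 FPKM on day 10 and 0.391, 3.31 and 0.0633 FPKM on day 14, and *Mef2c* measured 55.7, 39.3 and 26.5 FPKM on day 10 and 15.1, 25.4 and 6.62 FPKM on day 14. By contrast *Mmp13*, a collagenase also made by OBs, measured 178, 595 and 242 FPKM on day 10 and 584, 1384 and 336 FPKM on day 14. *Sox5* was on the list too but is a chondrocyte factor that is not specific to hypertrophic cells. It measured 0.912 to 1.24 FPKM on day 10 and 1.27 to 1.57 FPKM on day 14, without overlap (limma, unadjusted p = 0.318). Both were named after their values were seen. Of the 5 genes on this list, *Sox5* among them, 3 (*Ihh*, *Mef2c* and *Panx3*) were lower at an unadjusted p under 0.05 (4.40% of all genes) and 0 were higher. The summed level of the list, most of it *Mmp13* in every day 14 sample, was 375 to 742 FPKM on day 10 and 626, 1532 and 355 FPKM on day 14. The part of such cells in the collagen values was not tested.

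Of the FACITs outside cartilage with a mean of at least 1 FPKM, *Col12a1*, *Col14a1* and *Col16a1* had higher means on day 14, and *Col22a1* had a lower one. *Col12a1*, a fibril-associated chain of dense connective tissue, measured 166, 194 and 268 FPKM on day 10 and 172, 385 and 265 FPKM on day 14 (log2 difference 0.34 ± 0.31, limma, adjusted p = 0.785). *Col16a1*, a minor FACIT, measured 112, 127 and 153 FPKM on day 10 and 183, 167 and 202 FPKM on day 14. *Col14a1*, found with type I fibrils, measured 34.4, 41.5 and 72.4 FPKM on day 10 and 95.1, 56.7 and 125 FPKM on day 14. The days of *Col16a1* did not overlap, whereas day 14 replicate 2 was within the day 10 range of *Col14a1*, and day 14 replicates 1 and 3 within that of *Col12a1*. The log2 differences were 0.50 ± 0.17 for *Col16a1* (limma, adjusted p = 0.396) and 0.90 ± 0.35 for *Col14a1* (adjusted p = 0.441). For *Col14a1* it was 1.22 without day 14 replicate 2 (adjusted p = 0.152, limma). Tendon and fibroblast markers had a summed level of 110.5 to 193 FPKM on day 10 and 148 to 352 FPKM on day 14, with 3 of 5 higher in mean log2 level and 0 past an unadjusted p of 0.05, and their part was not tested.

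*Col22a1*, a chain of tissue junctions such as that of muscle and tendon, measured 90.6, 137 and 26.1 FPKM on day 10 and 19.5, 22.2 and 2.39 FPKM on day 14. The days did not overlap, although day 10 replicate 3 was close to day 14 replicate 2. The fitted log2 difference was −2.74 ± 0.87 (limma, adjusted p = 0.373).

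Both multiplexins, basement membrane proteoglycans that carry endostatin-like ends, were higher in every day 14 sample. *Col15a1* measured 1.28, 1.81 and 2.36 FPKM on day 10 and 11.5, 2.41 and 10.5 FPKM on day 14. Day 14 replicate 2 was only just above the highest day 10 sample. Its log2 difference was 1.85 ± 0.56 (limma, adjusted p = 0.357), and without that sample it was 2.57 (adjusted p = 0.0309). *Col18a1* measured 14.9, 7.66 and 15.4 FPKM on day 10 and 15.9, 18.2 and 21.3 FPKM on day 14, with a log2 difference of 0.60 ± 0.28 (adjusted p = 0.525).

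Of the transmembrane chains *Col13a1*, a chain of cell adhesion sites and the neuromuscular junction, had the highest mean on day 10. On day 14 *Col23a1* had it, with a mean of 10.7 FPKM against 6.15 FPKM for *Col13a1*. *Col13a1* measured 37.0, 30.5 and 13.2 FPKM on day 10 and 3.25, 13.5 and 1.68 FPKM on day 14. Day 14 replicate 2 was just above the lowest day 10 sample and the other day 14 samples were below all of them. The log2 difference was −2.51 ± 0.69 (limma, adjusted p = 0.325), and without day 14 replicate 2 it was −3.34 (adjusted p = 0.0377). *Col23a1* measured 6.17, 4.73 and 12.2 FPKM on day 10 and 14.1, 5.49 and 12.6 FPKM on day 14, with overlapping days (log2 difference 0.48 ± 0.44, adjusted p = 0.788). *Col17a1* and *Col25a1*, the other transmembrane chains, had means under 1 FPKM. *Col7a1*, the anchoring fibril chain of skin, measured 3.72, 4.48 and 10.2 FPKM on day 10 and 6.35, 7.70 and 7.41 FPKM on day 14, and all day 14 samples were within the day 10 range. Keratinocytes are its main source in skin, and the summed level of 5 keratinocyte markers was 2.36 to 3.42 FPKM on day 10 and 1.13 to 2.75 FPKM on day 14.

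The 11 chains with a mean under 1 FPKM were *Col17a1*, *Col19a1*, *Col20a1*, *Col25a1*, *Col28a1*, *Col4a3*, *Col4a4*, *Col4a6*, *Col6a4*, *Col6a5* and *Col6a6*. Their values lay between 0.0355 and 2.07 FPKM, or an estimated 1.00 to 84.6 reads a sample. The smallest adjusted p among them was 0.725 (limma), for *Col6a5*, which measured 0.157, 0.160 and 0.240 FPKM on day 10 and 2.07, 0.111 and 0.451 FPKM on day 14. For the others the log2 difference ran from −0.70 to 0.53, and none had an unadjusted p under 0.05.

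The classes also differ in features that the choice of genes did not use. In fibrillar chains 82.4% of the 649 coding exons had a length that is a multiple of 9 bases, the length that codes for 1 Gly-X-Y repeat, and 47.0% had 54 bases. The shares of multiples of 9 were 69.4% in transmembrane chains and 52.9% in FACIT chains, while none of the 6 coding exons of the hexagonal network chains was one. Among 18498 other protein-coding genes the shares were 13.9% and 0.416% (GENCODE vM21, mm10). Of the 43 chains 35 had a promoter window in RefSeq, with 38 windows together. Their median GC content was 59.8%, against 52.7% over all windows. A chain was counted where any of its windows held the letters, while the shares over all genes count windows. A GC box (GGGCGG on either strand) was in the window of 62.9% of these chains (23 of the 38 windows) and in 35.7% of all 32851 windows. For the CCAAT box (CCAAT) the shares were 37.1% and 37.4%, and for the TATA box (TATAAA) 14.3% and 13.6%. The letters ACAAAG, a core that SOX factors bind, were in 14.3% and 18.7%, and TGTGGT, a core that RUNX factors bind, in 8.57% and 16.8%.

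Genes that hydroxylate, fold, process and cross-link collagen were read from a list of 37, of which 36 passed the filter on low values. None had an adjusted p under 0.05. At an unadjusted p under 0.05, 4 were higher on day 14 (5.60% of all genes) and 9 were lower (4.40%), and the median log2 difference was −0.23. Day 14 was lower without overlap in 11 of the 36 (6.67% of all genes) and higher without overlap in 3 (7.59%).

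The smallest unadjusted p-values were those of *Creb3l1*, *Leprel4*, *P4ha3* and *Adamts14*. *Creb3l1*, a transcription factor that drives collagen secretion in OBs, measured 193, 124 and 114 FPKM on day 10 and 56.9, 90.6 and 69.3 FPKM on day 14 (log2 difference −0.98 ± 0.25, limma, adjusted p = 0.309). *Leprel4*, the older symbol of *P3h4*, a partner of lysyl hydroxylation, had a log2 difference of −0.88 ± 0.24 (adjusted p = 0.319). *P4ha3*, a prolyl hydroxylase subunit, differed by 0.86 ± 0.25 (adjusted p = 0.340), and *Adamts14*, a procollagen N-proteinase, by −1.12 ± 0.34 (adjusted p = 0.359).

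The highest levels on the list were those of *Sparc*, *Serpinh1*, *P4hb* and *Pcolce*. *Sparc*, the collagen-binding bone matrix protein osteonectin, measured 14136, 17354 and 10661 FPKM on day 10 and 10917, 13625.5 and 10848 FPKM on day 14 (log2 difference −0.23 ± 0.55, limma, adjusted p = 0.939). *Serpinh1*, the collagen chaperone of the endoplasmic reticulum, had a mean of 1074 FPKM and a log2 difference of −0.51 ± 0.24 (adjusted p = 0.527). For *P4hb*, the shared prolyl hydroxylase subunit, the mean was 883 FPKM and the difference −0.27 ± 0.22 (adjusted p = 0.757), and for *Pcolce*, an enhancer of propeptide removal, 778 FPKM and −0.26 ± 0.20 (adjusted p = 0.747). In *Serpinh1*, *P4hb* and *Pcolce* the highest day 14 value was under the lowest day 10 value.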

How the data were processed

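RNA-seq values of 6 samples of sorted ECFP+ OBs were used. Per the labels and methods, libraries were made with a SMART-Seq low-input kit and sequenced as 75-base single-end reads, and the authors called bases with Casava 1.8.2, mapped reads to mm10 with TopHat2 2.0.13, Bowtie2 2.2.3 and SAMtools 0.1.19, and deposited FPKM per gene from Cufflinks 2.2.1. The gene annotation and the handling of reads shared by several genes are not given in the sources used here. In 1 file, 25 symbols that had become dates were restored by their position.

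Mapped reads were estimated from the steps between values up to 0.3 FPKM of 1977 single-transcript genes, and 74.9% to 79.7% of those values came within 0.1 of a whole read. The estimates serve only to judge depth and cover counting error only.

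Day 14 was compared with day 10 with limma 3.58.1 in R 4.3.3. The model had day as its single factor and let the variance follow the mean, and it was fitted to log2(FPKM + 0.1) of the 19526 genes whose mean FPKM exceeded 0.1. All 43 chains passed this filter. Fold changes are those of FPKM + 0.1 and understate changes of low genes. The fit was tested on simulated data. With 3 samples against 3, an exact permutation test of a single chain cannot go below p = 0.1. P-values measure the spread between these samples, since no source says how many animals each holds. Lists were described by counts and medians, with no test over a list.

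Values of each sample are given for chains with a mean of at least 1 FPKM. Differences are given for chains over 2-fold, with an unadjusted p under 0.05, with separated days or with a mean of at least 100 FPKM. From the collagen pathway list, the 4 genes with the smallest p and the 4 with the highest mean are named, and from cell type lists the defining markers. Other markers (*Dlx5*, *Phex*, *Ibsp*, *Comp*, *Lect1*, *Matn1*, *Panx3*, *Emcn*, *Kdr* and *Vwf*) were named after their values were seen. The chains, lists and rules were chosen with earlier results of these data known. Alternatives were other pseudocounts, filters, scalings and variance models, a replicate block and leaving out each sample. Coordinates and exons are from GENCODE vM21 (mm10) and promoter windows from RefSeq (GRCm38.p6), both counted from 1.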

Additional observations from a re-analysis of the deposited data

How the results depend on the processing

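Under 14 alternatives, none of the 18 chains with an unadjusted p under 0.05 changed sign, and 6 of them (*Col4a1*, *Col4a2*, *Col8a1*, *Col8a2*, *Col13a1* and *Col24a1*) passed in every alternative. Class sums and ratios, which were not tested, moved by less than 1 SD, an SD that day 14 replicate 2 widens. With 1 sample left out the log2 difference of *Col2a1*/*Col1a1* ran from −4.02 (without day 14 replicate 2) to −1.16 (without day 14 replicate 3), and that of *Col11a1*/*Col2a1* from 0.45 (without day 14 replicate 1) to 2.70 (without day 14 replicate 2). The FACIT sum (−0.013 to 0.27) and *Col5a1*/*Col5a2* (−0.016 to 0.34) changed sign. The count of 18 was 11 without the mean-variance trend, and 7 to 22 with 1 sample left out (9, 7 and 19 without day 10 replicates 1, 2 and 3, and 13, 22 and 8 without day 14 replicates 1, 2 and 3). With 1 sample left out, 3 to 76 of all genes and 0 to 8 chains had an adjusted p under 0.05, and the 8 arose without day 14 replicate 2. The causes were not tested.

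The log2 difference changed sign for 9 chains, none with an unadjusted p under 0.05. *Col19a1* was −0.033 with a pseudocount of 0.01, *Col28a1* 0.25 with quantile normalization, and *Col4a3* 0.0088 with a pseudocount of 1 and 0.21 with quantile normalization. With 1 sample left out the ranges were −0.44 to 0.52 for *Col19a1*, −0.48 to 0.52 for *Col28a1*, −0.88 to 0.33 for *Col4a3*, −0.32 to 0.34 for *Col4a4*, −0.47 to 0.20 for *Col4a5*, −0.087 to 0.86 for *Col4a6*, −0.18 to 0.11 for *Col5a1*, −0.092 to 0.85 for *Col5a3* and −0.32 to 0.67 for *Col6a4*.

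The replicate numbers were not taken to pair the samples: deviations of same-numbered samples correlated at 0.058, −0.00584 and 0.0887 across genes. With the replicate block, 21 chains (and 10.9% of all genes) had an unadjusted p under 0.05, 0 chains and 2 of all genes had an adjusted p under 0.05, and 6 chains were over 2-fold higher and 10 lower. Among the 11 chains under 1 FPKM some values rest on about 1 read.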
